A study of Mus musculus with 6 samples.

Results

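The 10 genes described here are Fos, Fosb, Jun, Junb, Egr1, Atf3, Ier2, Dusp1, Hspa1a and Hspa1b. They were chosen by name, and all 10 were among the 23934 genes of the deposited table and among the 15935 genes tested. The cells were sorted from mouse skin at day 50, from mice described as expressing the red fluorescent protein tdTomato, and gave 3 control libraries (S2, S3, S4) and 3 knockout libraries (S5, S6, S7). Every sample is labelled +/- for Lrig1-CreERT2 or Lrig1-CreER, a tamoxifen-activated recombinase under control of Lrig1, a gene of the upper hair follicle. All received 4-hydroxytamoxifen as pups, from day 4 to 7 or from day 5 to 8. The knockouts are labelled fl/fl for ZNF750 and -/- for Rosa26, the usual site of tdTomato reporters. Of the controls, 2 are labelled wt/fl with Rosa26 -/- and 1 is labelled wt/wt with Rosa26 +/-. How tdTomato was carried is therefore not clear from the labels. Values below are listed in the order S2, S3, S4 for controls and S5, S6, S7 for knockouts. Zfp750, the mouse ZNF750, encodes a zinc finger protein that promotes terminal differentiation of the epidermis, and the comparison asks how transcript levels of the sorted cells differed with its loss.

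Immediate early genes are transcribed within minutes of a stimulus, without new protein synthesis. Growth factors and stress act through mitogen-activated protein kinases on factors already bound at their promoters, such as serum response factor and CREB. Heat shock genes answer to a separate factor, HSF1, when proteins unfold. Both sets are known to rise when skin is cut, digested and passed through a sorter, so in sorted cells they are often read as marks of handling. No library of undissociated skin was analysed here, so the part of handling in these levels was not tested.

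Promoter sequences of 8 of the 10 genes could be matched by symbol in RefSeq (GRCm38.p6). The 250 bases before the start are shown for 6 of them, and the matched windows of Fosb and Junb are not shown. In the first 4, capitals mark TGACG, the half-site bound by CREB and ATF proteins, or GAANNTTC, the core of a heat shock element, on either strand. Fos lies at chr12:85473640-85473889 on the plus strand, and Jun at chr4:95052223-95052472, Atf3 at chr1:191183334-191183583 and Dusp1 at chr17:26508473-26508722 on the minus strand.
Fos: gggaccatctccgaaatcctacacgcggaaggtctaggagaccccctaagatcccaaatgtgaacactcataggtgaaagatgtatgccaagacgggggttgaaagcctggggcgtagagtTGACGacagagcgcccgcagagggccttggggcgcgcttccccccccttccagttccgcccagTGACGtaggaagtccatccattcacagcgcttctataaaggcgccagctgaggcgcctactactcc
Jun: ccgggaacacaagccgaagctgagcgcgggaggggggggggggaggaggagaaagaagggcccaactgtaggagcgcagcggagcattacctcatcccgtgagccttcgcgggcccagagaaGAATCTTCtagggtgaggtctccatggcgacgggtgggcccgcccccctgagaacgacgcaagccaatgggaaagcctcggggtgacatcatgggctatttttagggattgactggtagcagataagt
Atf3: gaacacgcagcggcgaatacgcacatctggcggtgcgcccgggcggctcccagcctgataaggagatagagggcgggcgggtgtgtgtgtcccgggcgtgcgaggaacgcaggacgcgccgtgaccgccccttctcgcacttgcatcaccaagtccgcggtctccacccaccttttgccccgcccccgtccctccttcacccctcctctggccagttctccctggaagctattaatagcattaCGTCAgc
Dusp1: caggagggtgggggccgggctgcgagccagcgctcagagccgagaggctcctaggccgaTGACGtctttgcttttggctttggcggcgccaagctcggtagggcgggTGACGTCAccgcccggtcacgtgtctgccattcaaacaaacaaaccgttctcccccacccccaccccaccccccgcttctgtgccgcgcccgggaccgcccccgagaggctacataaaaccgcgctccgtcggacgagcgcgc
TGACG was found in 5 of the 8 matched promoters (Fos, Fosb, Junb, Atf3 and Dusp1) and in 17.8% of all 32851 promoter windows of the same length. The full palindrome TGACGTCA, which overlaps 2 half-sites, was found in Dusp1 alone among the 8 and in 1.55% of all windows. GAANNTTC was found in Jun, Hspa1a and Hspa1b, and in 6.69% of all windows. TGANTCA, the AP-1 site, was found in none of the 8 and in 6.75% of all windows. These matches describe letters in the window only.

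The Hspa1a and Hspa1b windows (chr17:34972157-34972406 and chr17:34959239-34959488, both minus strand) are shown because the 2 genes are near copies. Here capitals mark the bases that differ.
Hspa1a: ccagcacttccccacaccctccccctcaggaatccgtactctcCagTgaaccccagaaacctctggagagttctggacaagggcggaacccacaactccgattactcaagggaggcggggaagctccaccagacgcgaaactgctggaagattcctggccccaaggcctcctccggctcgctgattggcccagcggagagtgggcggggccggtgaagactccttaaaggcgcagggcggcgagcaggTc
Hspa1b: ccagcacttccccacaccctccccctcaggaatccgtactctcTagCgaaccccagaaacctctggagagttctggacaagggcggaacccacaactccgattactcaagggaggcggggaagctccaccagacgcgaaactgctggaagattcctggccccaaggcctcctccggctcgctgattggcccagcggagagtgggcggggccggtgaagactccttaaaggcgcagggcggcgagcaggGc
Counted from 1 at the 5′ end, with the Hspa1a base first, the differences were C44T, T47C and T249G. GAANNTTC stood in both windows, 104 to 97 bases before the start. Of the 50-base windows along the Hspa1a transcript, 58.8% also occurred in the Hspa1b transcript, and 62.3% of those of Hspa1b occurred in Hspa1a (GENCODE M21). The sources used here do not state how reads common to both genes were assigned, and the separate values of Hspa1a and Hspa1b are uncertain.

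Depth was 15310174 to 20705364 estimated reads per library, and each of the 10 genes had at least 3303 estimated reads in every library, so counting error was small beside the spread between libraries. Zfp750 had normalized counts of 41.9, 3.75 and 314 in controls against 4.90, 1.82 and 7.16 in knockouts. Control S3 lay within the knockout range, which leaves the label of that library unchecked by its target gene. Its value of 3.75 stands for 3 estimated reads. S3 also had the lowest keratinocyte marker sum of the 6 libraries (1184), so a low Zfp750 value does not speak against its label. The libraries were rich in dermal transcripts: 7 fibroblast markers summed to 2976355 to 8909406 in controls and 917333 to 1206587 in knockouts. The sum was mostly collagen, and none of the 3 collagen genes was called. Only Pdgfra (log2 fold change 1.24 ± 0.21 SE, limma adjusted p = 0.0165) and Pdgfrb (1.00 ± 0.22, adjusted p = 0.0384), receptors for platelet-derived growth factor, were called among the 7, and both rose. The 10 keratinocyte markers summed to 1184 to 31692 in controls and 4624 to 26232 in knockouts. The 8 leukocyte markers summed to 1260 to 2931 in controls and 1542 to 10691 in knockouts, and the 6 mast cell markers to 44.5 to 614 and 1376 to 4332. Neutrophil markers summed to 15.0 to 37.8 against 1002 to 2288, endothelial markers to 1331 to 2210.2 against 1490 to 6023, and fat cell markers to 32.8 to 127 against 151 to 1655. In knockouts the neutrophil sum was mostly Mmp9 (952, 1007 and 1785). Csf3r, the only other neutrophil marker tested, was 6.35, 0 and 17.7 in controls against 32.4, 21.0 and 163 in knockouts. No fibroblast, keratinocyte or leukocyte marker was at 0 in any library. In each of the 3 controls 1 mast cell marker was at 0. In bulk libraries, fewer cells of a type and less RNA per cell cannot be told apart.

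The immediate early genes were among the most abundant transcripts of every library, in both groups. Fos, which encodes the AP-1 subunit c-Fos, ranked between the 15th and the 44th highest gene of each library, and Egr1, a zinc finger transcription factor, between 13th and 49th. Ranks in single libraries ran from 12 to 84 for Fosb, Jun, Junb and Dusp1. They ran from 82 to 671 for Atf3, Ier2, Hspa1a and Hspa1b. Summed, the 10 genes took 1.56%, 1.50% and 1.37% of the total in controls against 1.62%, 2.31% and 1.04% in knockouts. The mean share in controls was 1.48% ± 0.0982, and in knockouts 1.66% ± 0.631 (SD over 3 libraries each), and the knockouts enclosed the control range. With Col1a1, Col1a2 and Col3a1 left out of the total, the shares were 1.97% ± 0.293 and 1.75% ± 0.661.

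Per kilobase of exon, the order by mean normalized count over the 6 libraries was Fos (24457), Egr1 (13317), Junb (12523), Dusp1 (8873), Jun (8662), Fosb (7923), Ier2 (3897), Atf3 (3397), Hspa1b (3341) and Hspa1a (3193). Fos was above Egr1, and Junb above Dusp1, in 6 of 6 libraries. The ranges of all neighbours in this order overlapped, and Egr1 against Junb, Ier2 against Atf3, Atf3 against Hspa1b, and Hspa1b against Hspa1a were each split 3 libraries to 3.

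**Figure D1:**
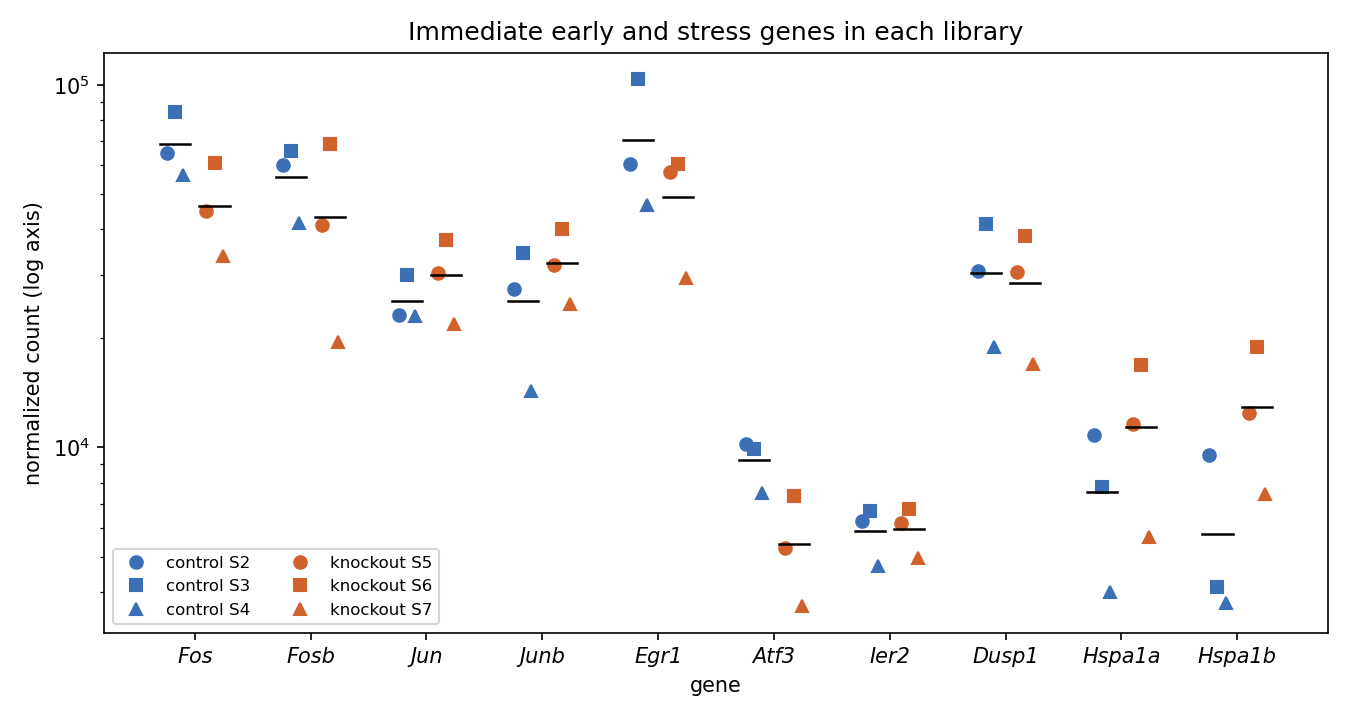
Normalized counts (log axis) of the 10 genes; blue marks the 3 control and orange the 3 knockout libraries, shape names the library and black lines are group means. Only Atf3 has groups that do not overlap (7472 to 10235 in controls, 3648 to 7342 in knockouts), and the triangles (S4 and S7) are the lowest of their group for all 10 genes on the authors' scaling. At a common total S7 stays so for all 10 and S4 for 4. With Col1a1, Col1a2 and Col3a1 left out of that total, S7 stays so for all 10 and S4 for 8.

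None of the 10 genes changed between control and knockout by limma at an adjusted p under 0.05, against 6.71% of all tested genes (4.12% higher and 2.59% lower in knockouts). At an unadjusted p under 0.05 there were 2 of the 10 (Atf3 and Hspa1b), against 23.2% of all tested genes. On the authors' scaling the groups did not overlap for 1 of the 10, Atf3, against 28.8% of all tested genes. At a common total they did not overlap for Junb alone, against 33.3%, and at a common total without Col1a1, Col1a2 and Col3a1 for Fos and Atf3, against 28.3%. The median log2 fold change of the 10 was -0.033, with 5 positive and 5 negative, and that of all tested genes was 0.014. With all libraries rescaled to a common total, which takes the median log2 fold change of all tested genes from 0.014 to 0.31, the log2 fold changes were -0.26 for Fos, -0.20 for Fosb, -0.18 for Egr1, 0.54 for Jun, 0.74 for Junb, 0.35 for Ier2, 0.90 for Hspa1a and 1.51 for Hspa1b, and again none was called. P-values measure the spread between these libraries, since the labels do not say that each is a separate mouse.

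The Fos subunits of AP-1 had lower knockout means that did not pass the test. AP-1 is a leucine zipper dimer of a Fos and a Jun protein, or of 2 Jun proteins. Fos (ENSMUSG00000021250, chromosome 12) was 64757, 84439 and 56475 in controls against 44926, 60850.3 and 33693 in knockouts. The knockout S6 lay above the control S4, so the groups overlapped. The means were 68557 ± 14364 and 46490.0 ± 13646 (SD, n = 3 each; log2 fold change -0.58 ± 0.37 SE, 95% interval -1.45 to 0.29, limma adjusted p = 0.397), and without S7 the log2 fold change was -0.37. Fosb (ENSMUSG00000003545, chromosome 7), a Fos paralogue, was 60029.5, 65649 and 41704 in controls against 41081, 68721 and 19589 in knockouts. Its highest and its lowest value were both in knockout libraries, S6 and S7, a 3.51-fold range within that group (log2 fold change -0.52 ± 0.50 SE, 95% interval -1.68 to 0.63, adjusted p = 0.575). It was -0.044 without S7 and -0.95 without S6.

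The Jun subunits had slightly higher knockout means, again short of the test. Jun (ENSMUSG00000052684, chromosome 4), which encodes c-Jun, was 23245, 29829 and 23001 in controls against 30312, 37393 and 21966 in knockouts. S5 and S6 were above all controls and S7 below all of them (log2 fold change 0.21 ± 0.30 SE, 95% interval -0.48 to 0.90, adjusted p = 0.714). The log2 fold change was 0.036 without S6, 0.42 without S7 and 0.34 without S3. Junb (ENSMUSG00000052837, chromosome 8), whose product can restrain c-Jun at some targets, was 27387, 34308 and 14330.1 in controls against 31812, 40148 and 24901 in knockouts. Control S4 stood below the other 5 libraries, and on this scaling the groups overlapped (log2 fold change 0.41 ± 0.39 SE, 95% interval -0.49 to 1.32, adjusted p = 0.572). At a common total they did not, with 1408, 1327 and 886 per 1000000 in controls against 1901, 2600.1 and 1548 in knockouts. Without S4 the log2 fold change was 0.048.

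Egr1 (ENSMUSG00000038418, chromosome 18), a serum-response target that in turn drives growth and repair genes, stood at 60510.2, 103631 and 46775 in controls against 57366, 60712 and 29287 in knockouts. The control S3 was the highest and the knockout S7 the lowest, and S2, S5 and S6 were close to each other (log2 fold change -0.51 ± 0.46 SE, 95% interval -1.59 to 0.57, adjusted p = 0.558). It was -0.19 without S3 and -0.17 without S7.

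Atf3 (ENSMUSG00000026628, chromosome 1) encodes a stress-induced bZIP factor that mostly represses its targets and damps inflammatory genes. It was 10235, 9919 and 7472 in controls against 5292, 7342 and 3648 in knockouts. On the authors' scaling all knockouts were below all controls, though S6 and S4 differed little. At a common total the groups overlapped: knockout S6, at 475 per 1000000, was above controls S3 and S4, at 384 and 462. The means were 9209 ± 1513 and 5427 ± 1851 (SD, n = 3 each; exact 2-sided permutation p = 0.1, the smallest that 3 against 3 can give). The log2 fold change was -0.81 ± 0.28 SE (95% interval -1.47 to -0.15, limma adjusted p = 0.144), and it was -0.48 when all libraries were rescaled to a common total. With Col1a1, Col1a2 and Col3a1 left out of that total it was -0.81. Over the alternatives its adjusted p was 0.0579 to 0.362.

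Ier2 and Dusp1 had nearly equal group means. Ier2 (ENSMUSG00000053560, chromosome 8), a short nuclear protein gene induced by growth factors, was 6283, 6664 and 4713 in controls against 6199, 6786 and 4945 in knockouts. Each group thus had 2 close values and 1 lower one, S4 and S7 (log2 fold change 0.025 ± 0.21 SE, 95% interval -0.47 to 0.52, adjusted p = 0.959). Dusp1 (ENSMUSG00000024190, chromosome 17) encodes a phosphatase that switches off p38 and JNK kinases, a brake on the same signal that induces it. It was 30585, 41286 and 18875 in controls against 30386, 38196 and 16949 in knockouts. The groups covered nearly the same range (log2 fold change -0.092 ± 0.42 SE, 95% interval -1.07 to 0.89, adjusted p = 0.921; log2 fold change 0.23 at a common total). Ier2 had the narrowest range of the 10 over all 6 libraries, 1.44-fold. The interval of Ier2 does not reach a 2-fold change in either direction, while that of Dusp1 includes a 2-fold lower level.

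The inducible HSP70 genes had higher knockout means. Their products are near-identical chaperones that bind unfolded protein, and both genes lie side by side on chromosome 17. Hspa1a (ENSMUSG00000091971) was 10842, 7791 and 3994 in controls against 11626, 16927 and 5657 in knockouts. Control S2 and knockout S5 were close, and S7 was below 2 of the controls (log2 fold change 0.57 ± 0.49 SE, 95% interval -0.56 to 1.71, adjusted p = 0.527). It was 0.17 without S4, 0.22 without S6, 0.89 without S2 and 1.01 without S7. Hspa1b (ENSMUSG00000090877) was 9510.4, 4126 and 3732 in controls against 12442.5, 18955.5 and 7419 in knockouts. The knockout S7 lay below the control S2, and the other 2 knockouts were above all controls. The means were 5789 ± 3229 and 12939 ± 5784 (SD, n = 3 each; log2 fold change 1.19 ± 0.45 SE, 95% interval 0.14 to 2.24, limma adjusted p = 0.169). Over the alternatives the adjusted p was 0.0624 to 0.372. The range of Hspa1b over the 6 libraries, 5.08-fold, was the widest of the 10.

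**Figure D2:**
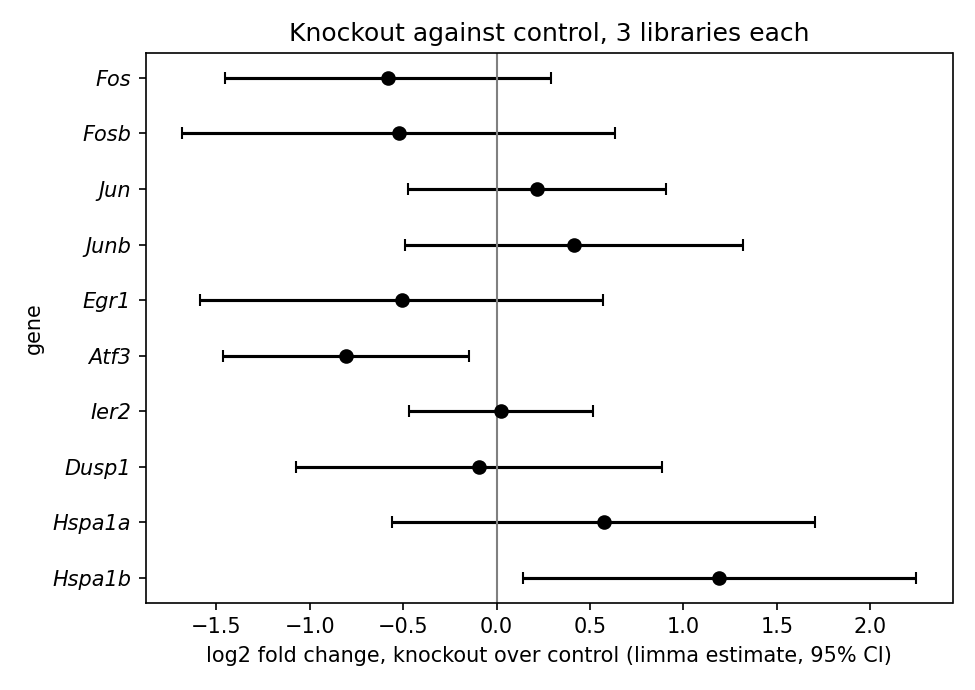
Log2 fold change of knockout over control for each gene (limma estimate, horizontal bars 95% interval, 3 libraries a group). The intervals of 8 genes cross 0; those of Atf3 (-1.47 to -0.15) and Hspa1b (0.14 to 2.24) do not, before adjustment over all tested genes.

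The 10 genes varied together between libraries of the same group. Within the knockouts S6 was the highest and S7 the lowest for all 10, on the authors' scaling and at a common total. Within the controls S4 was the lowest for all 10 on the authors' scaling, but at a common total for 4, with S3 the lowest for the other 6. With Col1a1, Col1a2 and Col3a1 left out of that total, S4 was the lowest control for 8 genes and S2 and S3 for 1 each. On the authors' scaling, as log2 level minus each gene's mean over the 6 libraries, the average of the 10 was 0.19, 0.27 and -0.45 in controls against 0.088, 0.49 and -0.59 in knockouts. In knockout S6 all 10 genes were above their own mean, and in knockout S7 all 10 were below it. In control S4, 8 of the 10 were below. At a common total the counts were 10 above in S6, 8 below in S7 and 7 below in S4. With the 3 collagens left out of that total they were 10, 10 and 7. On the authors' scaling each gene had its lowest value in S7 (6 genes) or S4 (4 genes), and its highest in S6 (6), S3 (3) or S2 (1). The pairwise Pearson correlation after subtracting group means was positive for 45 of 45 pairs (median 0.88, range 0.39 to 0.99, over 6 libraries that share scaling), and at a common total again for 45 of 45 (median 0.83). Without that subtraction 42 of 45 were positive (median 0.66). These correlations were not set beside those of pairs of other tested genes, so they do not mark the 10 genes out. S4 and S7 were also the libraries with the highest keratinocyte marker sums (31692 and 26232, against 1184 to 8302 in the other 4) and with the highest Krt5, a basal keratinocyte keratin (11805 and 8559, against 62.5 to 2503). They were also highest in the sums of leukocyte markers (2931 and 10691, against at most 2590.1) and endothelial markers (2210.2 and 6023, against at most 2054). Most leukocyte markers were not raised in S4 in this way. Ptprc (579 in S4 against 679 in S6), Laptm5, Cd52 and Itgam were higher in S6 than in S4, and Csf1r was higher in S2 and S3. Only Lyz2, Cd68 and Cd3e were higher in S4 than in every library but S7, and Lyz2 was the largest of these (971). In S4 the endothelial sum was mostly Tek (1898). Of the other endothelial markers, Pecam1 and Cdh5 were lower in S4 than in any other library, and Kdr and Vwf lower than in most. The S4 endothelial sum therefore rests on Tek alone. The part of cell makeup in the library pattern was not tested.

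**Figure D3:**
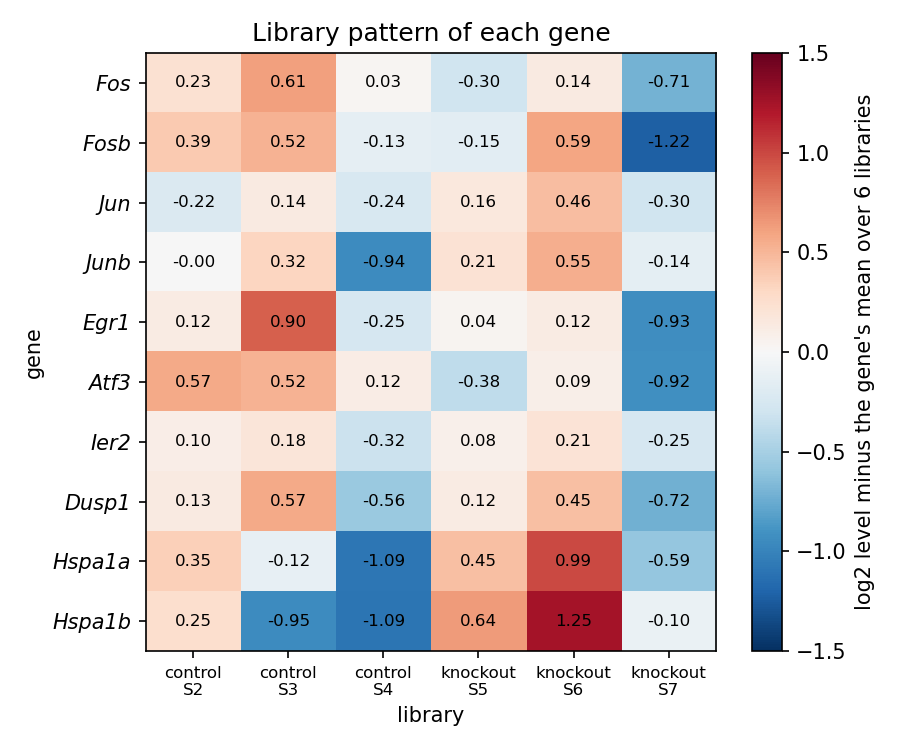
Each cell gives the log2 level of a gene in a library minus its mean over the 6 libraries (red higher, blue lower). On the authors' scaling the S7 column is negative for all 10 genes and the S6 column positive for all 10, while S4 is lowest for Junb, Ier2, Hspa1a and Hspa1b.

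Of 13595 other tested genes, predicted genes left out, the 5 whose log2 levels most closely followed the average of the 10 over the 6 libraries, on the authors' scaling, were Xirp1 (Pearson r = 0.996), Sat1 (0.996), Zfand5 (0.995), Napg (0.992) and Frmd8os (0.982). These are descriptions, ranked over many genes and few libraries. Xirp1 encodes an actin-binding repeat protein of muscle, and Sat1 a polyamine acetyltransferase. Sat1 was 1983, 2077 and 1384 in controls against 1795, 2217 and 1279 in knockouts. Of the 10 genes themselves, Ier2 (0.969) and Dusp1 (0.968) followed the average most closely and Hspa1b (0.522) least. Each of the 10 is part of that average, so these values cannot be set beside those of the other genes.

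Ratios between the genes within a library do not depend on how libraries are scaled to each other, and they were examined after the values had been seen. The groups did not overlap for 24 of the 45 ratios (53.3%), against 30.6% of all ratios between tested genes above 0 in every library. The 45 ratios share 10 genes and are not independent, so the shares are given as a description, and so are the ratios below, picked for their difference. Fos to Jun was 2.79, 2.83 and 2.46 in controls against 1.48, 1.63 and 1.53 in knockouts. Both groups were tight here although each gene alone overlapped between them (means 2.69 ± 0.205 and 1.55 ± 0.0736, SD, n = 3 each). Jun to Atf3 was 2.27, 3.01 and 3.08 in controls against 5.73, 5.09 and 6.02 in knockouts. Atf3 to Ier2 was 1.63, 1.49 and 1.59 in controls against 0.854, 1.08 and 0.738 in knockouts. Fos and Atf3 were thus lower relative to Jun and Ier2 in all 3 knockouts than in any control.

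Within the heat shock pair, Hspa1a to Hspa1b was 1.14, 1.89 and 1.07 in controls against 0.934, 0.893 and 0.762 in knockouts. Hspa1b was the higher of the 2 in all knockouts and the lower in all controls, and this ratio rests on reads the genes may share. Of the 45 ratios, Atf3 to Hspa1b left the widest gap between the groups, at 1.08, 2.40 and 2.00 in controls against 0.425, 0.387 and 0.492 in knockouts. Fosb to Hspa1b came next and was 6.31, 15.9 and 11.2 in controls against 3.30, 3.63 and 2.64 in knockouts. Both ratios use Hspa1b, whose separate value is uncertain. With Hspa1a in its place the groups again did not overlap, but the gaps were narrower. On the log2 scale they were 0.55 against 1.13 for Atf3 and 0.45 against 0.80 for Fosb. The fibroblast marker sum was lower in all knockouts, and the mast cell, neutrophil and fat cell sums were higher in all knockouts, with the values given above. As stated there, the fibroblast sum was mostly collagen and the neutrophil sum of the knockouts mostly Mmp9. The part of cell makeup in the ratios was not tested.

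**Figure D4:**
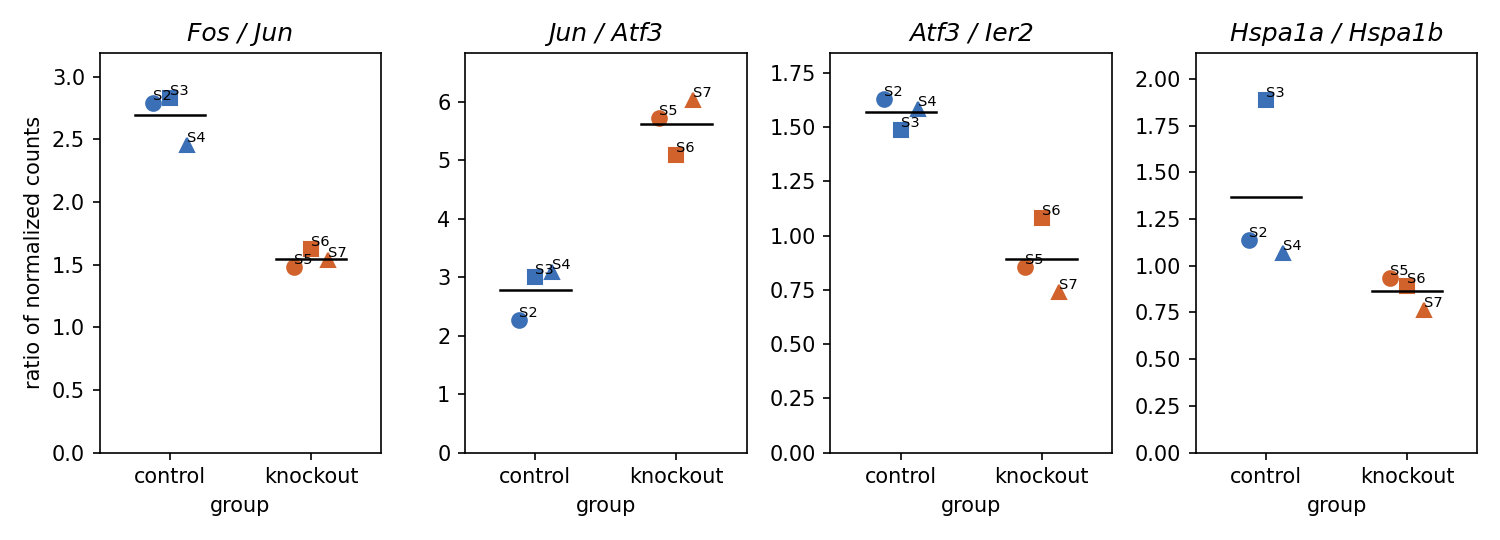
Ratios of normalized counts within each library for 4 gene pairs picked after their values were seen (points are libraries, black lines group means, axes start at 0). Fos to Jun is 2.46 to 2.83 in controls and 1.48 to 1.63 in knockouts, and Jun to Atf3 is 2.27 to 3.08 and 5.09 to 6.02.

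Other immediate early genes were mostly not called either. Of 42 tested genes of that list 4 rose and 0 fell (9.52%, against 6.71% of all genes), with a median log2 fold change of 0.34 and 33 positive. Cebpd, a C/EBP factor of acute inflammation, was 4640.2, 5095 and 4072 in controls against 9132, 12749 and 8252 in knockouts. All knockouts stood above all controls (log2 fold change 1.10 ± 0.22 SE, adjusted p = 0.0283), but leaving out any 1 of the 6 ended the call (adjusted p = 0.0503 to 0.115). The matricellular growth factor gene Ccn2 was 1747, 460 and 1939 in controls against 8303, 5099 and 6178 in knockouts (2.45 ± 0.52, adjusted p = 0.0358). It lost its call without S2, S5, S6 or S7 (adjusted p = 0.0797 to 0.101). The circadian repressor gene Per1 rose 0.83 ± 0.16 (adjusted p = 0.0281), a call lost without S2, S6 or S7 (0.124, 0.101 and 0.0941). Ier5l rose 0.97 ± 0.20 (adjusted p = 0.0343), lost without S2, S3, S4, S5 or S6 (0.0583 to 0.121).

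Among 20 tested relatives of the AP-1 and ATF proteins 1 rose and 0 fell (5.0%, against 6.71% of all tested genes). Their median log2 fold change was 0.26, against 0.014 for all tested genes.

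No other dual-specificity phosphatase was called among 15 tested by limma, against 6.71% of all tested genes. At an unadjusted p under 0.05 there were 5, or 33.3%, against 23.2%, and the median log2 fold change was 0.38. The 2 most abundant were Dusp11 (-0.33 ± 0.17 SE, adjusted p = 0.300) and Dusp3 (0.42 ± 0.16, adjusted p = 0.174). When libraries were rescaled to a common total Dusp3 passed the test (log2 fold change 0.74, adjusted p = 0.0343) and Dusp11 stood at -0.0069.

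No other heat shock gene was called among 38 tested by limma, against 6.71% of all tested genes. At an unadjusted p under 0.05 there were 8, or 21.1%, against 23.2%, with 22 positive and a median log2 fold change of 0.065. Hspa8, the constitutive HSP70, was 16822, 14027 and 11648 in controls against 15795, 20966 and 13338 in knockouts, so on the authors' scaling it too was lowest in S4 and highest in S6 (0.23 ± 0.26 SE, adjusted p = 0.649). Hsp90ab1, the constitutive HSP90, was 7306 to 8551 in controls and 7421 to 9201 in knockouts (0.087 ± 0.18, adjusted p = 0.817).

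Of 34 tested kinases and factors upstream of these genes 2 rose and 1 fell (8.82%, against 6.71% of all tested genes, median log2 fold change 0.024). Elk3, an ETS partner of serum response factor that represses its targets until phosphorylated, was 565, 511 and 445 in controls against 1329, 1030.3 and 1369 in knockouts. The groups were well apart (1.27 ± 0.18 SE, adjusted p = 0.00801), and Elk3 passed the test without each library in turn (adjusted p = 0.0153 to 0.0329). Mapkapk2, the kinase through which p38 stabilises cytokine transcripts, was 1317 ± 57.0 in controls against 2195 ± 116 in knockouts (SD, n = 3 each; 0.73 ± 0.13, limma adjusted p = 0.0224). The call held in the fit that left out S4 (adjusted p = 0.0397) and in none of the other 5 (0.0519 to 0.0938). Mapk12, the muscle-rich p38 gamma, fell from 364 ± 58.3 to 153 ± 39.2 (-1.22 ± 0.24, limma adjusted p = 0.0268). That call held in the fits that left out S4 or S5 (adjusted p = 0.0253 and 0.0254) and in none of the other 4 (0.0760 to 0.117), nor at a common total (0.0708). The 5 skeletal muscle markers summed to 509 to 6389 in controls and 371 to 970 in knockouts, and their part in Mapk12 was not tested.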

How the data were processed

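RNA was sequenced from sorted mouse skin cells of 3 control and 3 knockout samples. Per the labels' protocols, RNA came from a PureLink column and libraries from the NEBNext Ultra II RNA kit. TopHat2 2.1.0 and Partek 9.0.20.0202 are listed, with no role, in the submitters' processing notes. Genome build, annotation and strand setting: not given in the sources used here. Gene positions deposited with the counts differ from the GRCm38.p6 positions above. Fos starts there at 85520664 on chromosome 12, while its GRCm38.p6 promoter window ends at 85473889. The authors deposited normalized counts per gene, treated here as a signal: reads divided by 1 size factor per library (0.787 to 1.26), not scaled to total or length. In each library 78.7% to 81.2% of values up to 1000 reads were whole reads within 0.05, so count models were not run. Each column's name shows its group but cannot be tied to a numbered sample, so libraries carry the numbers in the column names.

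The group comparison used limma 3.58.1 under R 4.3.3 (intensity trend, 2-sided) on log2(value + 9.15), a pseudocount of 0.5 per 1000000 of the mean total. Fold changes of low genes are understated on that scale. Genes had to reach 1 per 1000000 in at least 3 libraries. P-values were adjusted over all 15935 tested genes by the Benjamini-Hochberg method and called under 0.05. The fit was tested on simulated data with 200 changed genes and a single fixed dispersion. That dispersion was not estimated from these libraries, so the simulation does not show how the fit performs at their spread. Single values used exact permutation tests in scipy 1.17.1. Exon lengths are from GENCODE M21, which may not be the annotation behind the counts. The 10 genes and the gene lists were chosen with earlier results of these data known. Every one of the 10 genes is named. From each list the text names the called genes, at most 4, or failing these the 2 most abundant. The closest 5 genes by correlation are named too. Krt5 and the ratios were picked with values known. Values of 1 called gene are not reported here.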

Additional observations from a re-analysis of the deposited data

How the results depend on the processing

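No call among the 10 genes appeared in any of 140 refits (10 genes, 14 alternatives; lowest adjusted p 0.0579). Direction turned for 2 of them, both near 0. Dusp1 had a log2 fold change of 0.23 at a common total, 0.17 without control S3 and 0.24 without knockout S7 (range -0.40 to 0.24 without 1 library). Ier2 had -0.13 without control S4, -0.0072 without knockout S5 and -0.072 without knockout S6 (range -0.13 to 0.16), and -0.16 with the block described below. Rescaling to a common total moved the median of shared genes by 0.31, so all changes are relative to the authors' scaling. With Col1a1, Col1a2 and Col3a1 left out of that total, the log2 fold changes of the 10 stayed close to those on the authors' scaling. They were -0.58 for Fos, 0.41 for Junb, -0.094 for Dusp1, -0.81 for Atf3 and 1.19 for Hspa1b, for example.

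Over all genes 1070 were called, 1997 with library weights, 1340 at a common total and 337 to 1285 without 1 library (337, 598, 1285, 923, 345 and 503 without S2 to S7 in order). At a common total, 1340 of all 15935 tested genes were called. Beside that, calls numbered 9 of 42 for the other immediate early genes and 4 of 20 for the AP-1 and ATF relatives. They numbered 2 of 15 for the phosphatases, 6 of 34 for the upstream genes and 0 of 38 for the heat shock genes. Without 1 library the calls of the first 4 of these lists ranged from 0 to 4, 0 to 2, 0 to 1 and 1 to 3. Those of the heat shock genes ranged from 0 to 2, against 337 to 1285 of the 15935 genes. Refits without 1 library kept the genes that passed the filter with all 6. The cause of these shifts was not tested. The column names cannot be tied to the numbered samples, but they open with a number that S2 shares with S6 and S3 with S7. A fit with that number as a block, added after seeing the data, rests on those 2 pairs. It called 1527 of the 15935 genes and none of the 10. Of the immediate early, AP-1 and ATF, phosphatase, heat shock and upstream lists it called 3 of 42, 2 of 20, 2 of 15, 3 of 38 and 3 of 34. Deviations from group means correlated at 0.25 for S2 with S6 and -0.22 for S3 with S7, so the number was not taken to pair the libraries.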
